A study of Mus musculus with 28 samples.

Results

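Alpha-fetoprotein (Afp) and 5 further genes that are known as oncofetal, Dlk1, Gpc3, H19, Igf2bp1 and Igf2bp3, were followed across 28 mouse arrays in 13 groups. They are 6 of the 21031 genes with a measurable probe, and 12 of the 31063 measurable probes carry their names. All 12 probes passed the filter on low signal. The genes were chosen by name with their level ratios and detection on all 28 arrays already in view. Their values are therefore given as a description, without a test, and tests are kept for 74 companion genes of the same pathways.

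Each array hybridised RNA of 1 sample in Cy3 against a commercial mouse reference RNA (Stratagene) in Cy5, so every level below is a log2 ratio of sample over reference, Cy3/Cy5. The labels give C57BL/6 as the strain. Liver organoids had been grown from single cells isolated for Lgr5, 2 arrays of them from a medium that keeps them growing, called expansion medium or EM, and 1 from a medium meant for differentiation, called DM. Liver came as adult liver of wildtype mice (2 arrays), whole liver tissue (2), a hepatocyte fraction obtained after liver isolation (2), duct cells sorted for the surface antigen Mic1-1c3 (2), and livers taken 3 days (2) or 13 days (2) after carbon tetrachloride (CCl4), a hepatotoxin that kills the hepatocytes around the central veins. Cells sorted for Lgr5 had been collected 6 days after CCl4 (2). The remaining groups were adult pancreas (2), muscle (3), white adipose tissue (3) and brown adipose tissue (3) of wildtype mice, and the labels call only the liver and pancreas adult. They give no age for the donors of muscle and fat, which may have been young, so age and tissue cannot be told apart where these are set against adult liver. No label says that the arrays of a group came from separate animals, so the errors and p-values measure the spread between arrays, which may be technical.

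Oncofetal genes are active in the embryo, are shut down in most adult tissues after birth, and can be active again in tumours and in regenerating tissue. Afp is the major serum protein of the fetus and lies beside albumin (Alb), which takes its place after birth. In the liver its shutdown depends on repressors such as Zhx2 and Zbtb20. H19 is a maternally expressed non-coding RNA next to the growth factor gene Igf2, and Igf2bp1 and Igf2bp3 encode RNA-binding proteins named for their binding of Igf2 mRNA. Dlk1 is an imprinted membrane ligand of the Notch family that marks fetal hepatoblasts and preadipocytes. Gpc3 is a heparan sulfate proteoglycan of the cell surface.

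The probe sequences of 3 members are shown because they define what was detected, 60 bases in each case, 5′ to 3′ and in the build of the deposited files, mm9. For H19 both probes are annotated to the non-coding transcript itself. By its coordinates probe 2 covers 148 bases of genome with its 60 bases and so crosses an exon junction. For Dlk1 and Igf2bp3 the second and the third probe are shown, whose values are set beside those of the lead probe.
H19 probe 1 (chr7:149761769-149761828, minus strand): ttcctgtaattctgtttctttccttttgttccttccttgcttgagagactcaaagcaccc
H19 probe 2 (chr7:149762018-149762165, minus strand): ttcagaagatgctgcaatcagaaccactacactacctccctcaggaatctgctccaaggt
Dlk1 probe 2 (chr12:110698428-110698487, plus strand): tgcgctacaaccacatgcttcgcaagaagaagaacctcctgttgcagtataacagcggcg
Igf2bp3 probe 3 (chr6:49057401-49057460, minus strand): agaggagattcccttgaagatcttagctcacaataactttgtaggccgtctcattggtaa

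The Afp promoter is printed because Afp had the widest range among the liver groups. The 250 bases before the RefSeq start site (build GRCm38.p6, chr5:90490464-90490713, plus strand) carry in capitals the TATA box letters TATAAA, searched on both strands.
Afp promoter: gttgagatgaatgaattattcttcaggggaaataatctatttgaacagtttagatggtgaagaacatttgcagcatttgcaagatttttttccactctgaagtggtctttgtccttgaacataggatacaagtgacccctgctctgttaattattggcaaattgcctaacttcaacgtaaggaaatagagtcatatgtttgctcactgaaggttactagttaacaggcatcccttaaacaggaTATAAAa
TATAAA occurred at 1 place in the Afp window, 7 bases before the start, and in 12.4% of 32851 promoter windows of the same length. The windows of Dlk1, Gpc3 and Igf2bp3 did not hold it. A match is a stretch of letters, and binding was not measured here.

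Between 17.7% and 69.1% of an array's probes were well above background in Cy3, and no spot was marked as saturated in either channel. The Lgr5-sorted arrays were dim, with 18.5% and 21.0% of probes above background, and a gene that is not detected there has a ratio near 0, so its place in the order of the groups is not a level. Pancreas array 1 was the dimmest of all, at 17.7%. The DM organoid (30.8%) and EM array 2 (31.4%) were also dim, and an undetected gene on these arrays is known only as a limit. The Lgr5-sorted arrays also carried macrophage markers, with list means of 3.63 to 6.26. Beside bile duct markers at 1.81 to 2.39, the sorted duct arrays carried stellate and matrix markers at 2.13 to 2.41. Their endothelial list stood at 3.37 to 4.79. Hepatocytes read -2.80 to -2.74 on the stellate and matrix list and 0.64 to 0.67 on the endothelial list. The tissues of the muscle and fat groups overlapped in content. The 3 muscle arrays carried the adipocyte hormone Adipoq at 5.90, 5.36 and 5.62, and skeletal actin Acta1 was at 5.08, 1.90 and 4.87 in white and at 4.35, 4.29 and 3.48 in brown adipose tissue. In bulk tissue, more cells of a type and more RNA per cell cannot be told apart.

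The Cy5 channel held the same reference RNA on every array, yet for some members its signal was higher where Cy3 was very bright. For H19 probe 1 the reference signal was 7314 to 70554 on the 9 muscle and fat arrays and 328 to 2740 on the other 19. For Gpc3 the reference was 194 to 546 on those 9 arrays and 88 to 172 on the other 19. It was above background on all 9 but on only 1 of the 19, so Gpc3 ratios outside muscle and fat rest mostly on an undetected reference. Albumin showed the same, with a reference signal of 46176 to 62058 on adult liver and of 111 to 114 on pancreas. Dlk1 probe 1 was at 21057 to 41818 against 1657 to 18770, and Igf2 at 12523 to 40756 against 268 to 1885. The reference could also be brighter without brighter Cy3. For the cycling gene Mki67 it was 56353 to 87260 on brown adipose tissue, at a Cy3 signal of 2468 to 4195. On EM organoids it was 30080 to 40830, at a Cy3 signal of 3656 to 8262. The Dlk1 ranges alone therefore do not tie its reference to bright Cy3. The cause was not tested. Ratios of H19, Igf2 and Alb can therefore move less than Cy3, and for Gpc3 the gap between ratio and Cy3 varied with the comparison. The difference in Cy3 alone (log2 of the Cy3 signal minus the array's 75th percentile) is given beside the ratio where the values part. A fold written as "at least" is also taken from Cy3 and not from the ratio. It sets the brighter group's mean normalised Cy3 signal against the other group's detection limit, can be larger or smaller than the fold of the ratios, and is open to dye bias because no dyes were swapped.

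**Figure D1:**
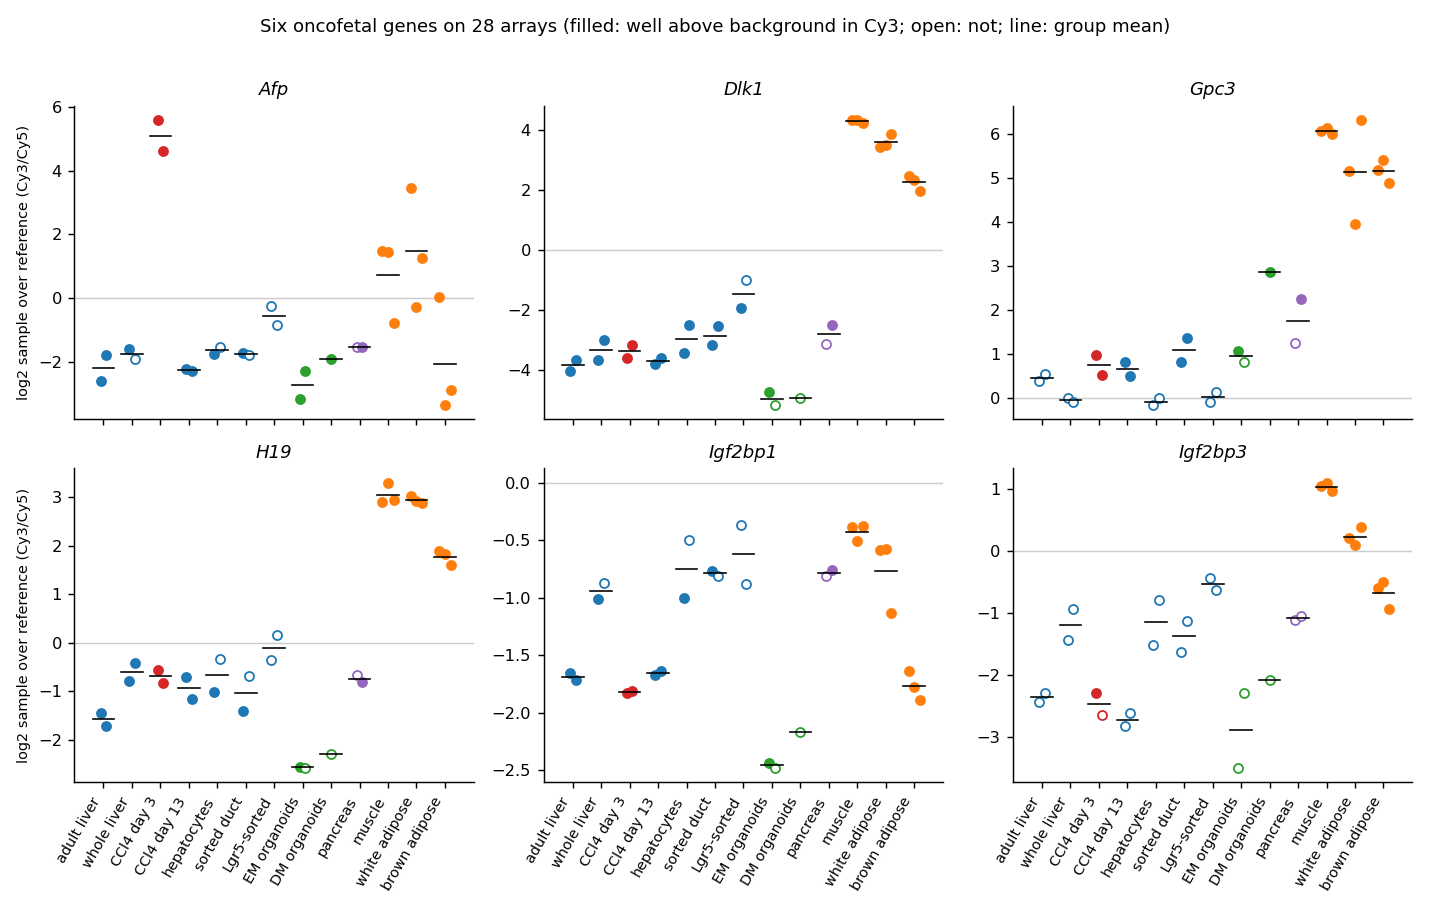
Level ratios (log2 Cy3/Cy5, vertical axis) of the 6 genes on the 28 arrays, by group (horizontal axis); filled points are well above background in Cy3, open points are not, and a line marks the group mean. Dlk1, H19 and Gpc3 are highest in muscle and both fats, Igf2bp3 is above background on every array of these 3 groups, and Afp is highest 3 days after CCl4.

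Afp had its highest level ratio in livers 3 days after CCl4. Its single probe (chr5:90937781-90937840, plus strand, mm9) is printed on 10 spots of each array, and the SD between these spots was 0.04 to 0.51 with a median of 0.13. The 2 arrays of day 3 read 5.59 and 4.61, a mean of 5.10 ± 0.69 (SD, n = 2). By day 13 they read -2.25 and -2.31, a mean of -2.28 ± 0.04 (SD, n = 2). Adult liver read -2.62 and -1.78, and whole liver tissue -1.61 and -1.93. Afp was above background on 2 of 2 adult liver arrays and on 3 of the 4 undamaged liver arrays together. A whole liver value in this baseline is thus known only as a limit. Both day 3 arrays thus stood above every undamaged liver, and day 13 lay within the range of adult liver.

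The difference between day 3 and undamaged liver (the mean of adult and whole liver) was 7.08 ± 0.86 (SE of the fit), and that between day 13 and day 3 was -7.38 ± 0.99. In Cy3 alone the differences were 7.20 and -7.54. The reference signal of Afp was 2389 to 2480 at day 3, 1893 to 2217 at day 13, 1789 to 2580 in adult liver and 453 to 2100 in whole liver. Undamaged liver and CCl4 liver were hybridised on different slides, with all 4 CCl4 arrays on 1 slide, so slide and treatment cannot be told apart for day 3 against undamaged liver. Day 13 against day 3 is a comparison within that slide.

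Other genes on the same arrays show what else differed at day 3. Mki67, a marker of cycling cells, read -0.94 and -1.12 at day 3 and -5.06 and -5.15 at day 13, against -5.37 and -5.06 in adult liver. Its rise against undamaged liver was 3.81 ± 0.28 (limma, adjusted p = 6.35e-08), and its fall to day 13 was -4.08 ± 0.30 (adjusted p = 7.51e-08). One whole liver array gave no Mki67 value because its spot was left out as an outlier. Alb differed by -0.36 ± 0.77 (adjusted p = 0.866). The stellate cell list stood at 0.26 to 0.40 at day 3 against -2.50 to -1.94 in adult liver, the bile duct list at -2.20 to -1.77 against -3.15 to -3.13, and the macrophage list at 2.01 to 2.28 against 1.15 to 1.80. The part of these cells in the Afp value was not tested.

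**Figure D2:**
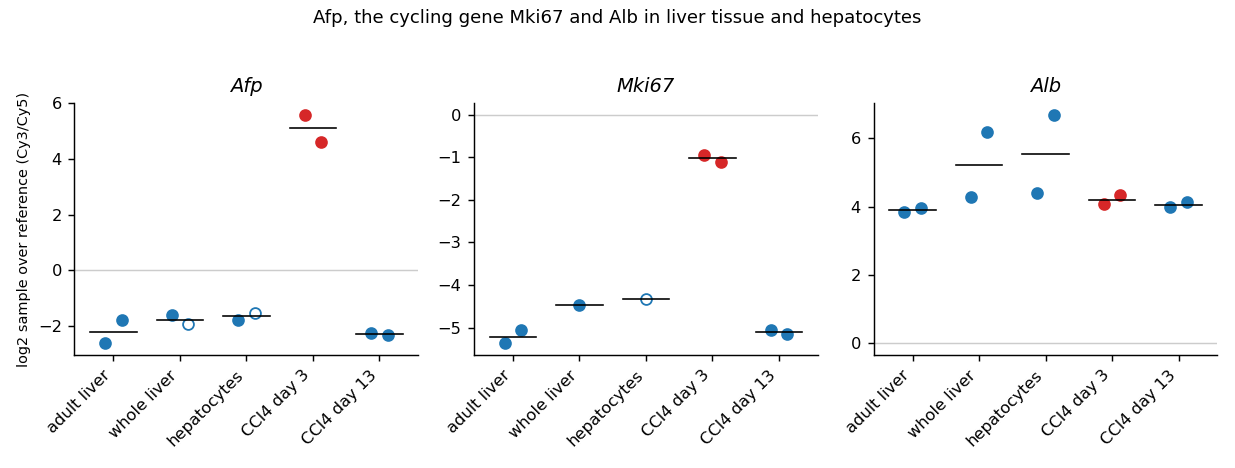
Level ratios (log2 Cy3/Cy5, vertical axis) of Afp, Mki67 and Alb on each array of adult liver, whole liver, hepatocytes and livers 3 and 13 days after CCl4 (horizontal axis). Afp stands at 5.59 and 4.61 on day 3 and at -2.25 and -2.31 on day 13, Mki67 is high on the same 2 arrays, and Alb overlaps between day 3 and undamaged liver.

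Outside damaged liver the Afp ratio was low in most groups. Hepatocytes read -1.77 and -1.53, sorted duct cells -1.72 and -1.80, and pancreas -1.55 on both arrays. In each of these groups Afp was above background on 1 of 2 arrays. EM organoids read -3.19 and -2.29 and the DM organoid -1.93, so EM lay partly below adult liver and DM within its range. The difference between EM organoids and adult liver was -0.54 ± 0.99 and that between DM and EM 0.81 ± 1.21, with overlapping arrays in the former. EM array 1 and adult liver array 1, scanned on the same day, read -3.19 and -2.62. Afp was not above background on either Lgr5-sorted array.

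Muscle and fat gave scattered Afp values. Muscle read 1.48, 1.43 and -0.80, a mean of 0.70 ± 1.31 (SD, n = 3). White adipose tissue read 3.45, -0.30 and 1.26, a mean of 1.47 ± 1.88, and brown adipose tissue 0.02, -3.37 and -2.90, a mean of -2.09 ± 1.84. The spread within each of these groups exceeded that of every liver group, and the ranges of the 3 groups overlapped. Muscle stood 2.91 ± 0.90 above adult liver, with all 3 arrays higher, and brown adipose tissue differed from white by -3.55 ± 0.81 with overlap. Muscle array 3 and white adipose array 1, which share a slide, differed by -4.25.

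Transcripts of liver were also read on these 9 arrays. Some had the order of Afp within muscle and within white adipose tissue, and others did not. Alb in Cy3 alone read 2.01, 1.89 and -0.34 in muscle, 3.39, 0.00 and 0.92 in white and 0.86, -2.54 and -2.07 in brown adipose tissue, on a scale where adult liver read 10.58 and 9.85. White adipose array 1 was highest and brown adipose array 2 lowest of the 9 in both genes, and muscle array 3 was the lowest muscle array in both. The ratio of Serpinc1, the liver-made protease inhibitor antithrombin, was 1.07, 0.50 and -0.26 in muscle, 0.95, -0.01 and 0.69 in white and 1.16, 0.42 and 0.37 in brown adipose tissue. Its highest value was thus on brown adipose array 1, where Afp was 0.02, and it was above background on 6 of the 9 arrays. The ratio of Apoa1, another liver transcript, was 1.57, 1.30 and 0.14 in muscle and 1.36, 0.01 and 1.07 in white adipose tissue. In brown adipose tissue it was 1.39, 0.23 and 0.15. Alb, Serpinc1 and Apoa1 had the order of Afp within muscle and within white adipose tissue. Within brown adipose tissue Alb kept that order, and Serpinc1 and Apoa1 did not. The ratio of Tat, a liver enzyme of tyrosine breakdown, was 0.53, 0.09 and 0.55 in muscle, with array 3 not the lowest, and Ttr, a plasma carrier protein, was above background on none of the 9. The hepatocyte list as a whole stood at 0.63 to 1.38 in muscle, 0.10 to 1.06 in white and 0.36 to 1.20 in brown adipose tissue, against 6.48 to 6.60 in adult liver. Of its 6 markers, 1, 1 and 3 were above background on all arrays of muscle, white and brown adipose tissue, and Cps1 was above background on 1 of the 9 arrays, white adipose array 1. The part of liver transcripts in these Afp values was not tested.

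**Figure D3:**
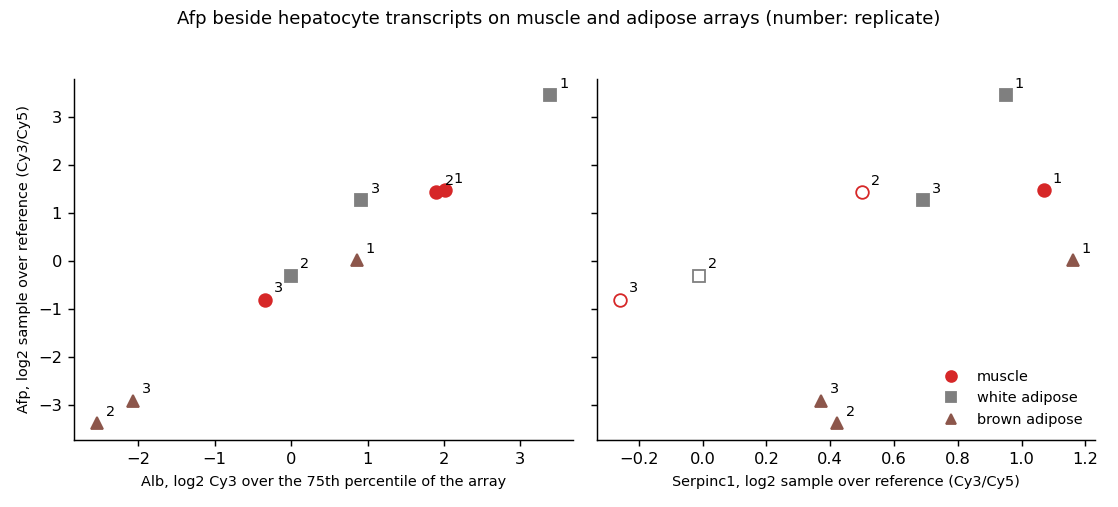
Afp level ratio (log2 Cy3/Cy5, vertical axis) on the 9 muscle and fat arrays, numbered by replicate, against Alb in Cy3 alone (log2 over the 75th percentile, left) and against the Serpinc1 level ratio (log2 Cy3/Cy5, right); open points have the gene of the horizontal axis not above background. White adipose array 1 is highest and brown adipose array 2 lowest in both Afp and Alb, while Serpinc1 is highest on brown adipose array 1.

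Dlk1 separated muscle and fat from every other group. On probe 1 (chr12:110698667-110698726, plus strand, mm9) muscle read 4.33, 4.33 and 4.23, white adipose tissue 3.43, 3.51 and 3.87, and brown adipose tissue 2.46, 2.32 and 1.97. Every array of the remaining 10 groups was below 0, and adult liver read -4.01 and -3.65. Muscle lay 8.13 ± 0.31 above adult liver on probe 1 and 7.48 ± 0.29 on probe 2, whose sequence is shown above, and Cy3 alone gave 7.40. The 3 groups of muscle and fat did not overlap each other in the ratio, in the order muscle, white, brown. Brown lay -1.35 ± 0.28 from white on probe 1 and -1.71 on probe 2, but -0.53 in Cy3 alone, a setting in which the median of all genes shifted by -0.71, so relative to that median the order of the 2 fats is not kept.

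Among the low groups, Dlk1 was lowest in organoids. EM organoids read -4.74 and -5.16, with 1 of 2 arrays above background, and the DM organoid read -4.94 and was not above background. Both EM arrays lay below both adult liver arrays, by -1.12 ± 0.34 on probe 1 and -0.84 on probe 2. Pancreas, at -2.81 ± 0.44 (SD, n = 2), lay 1.02 ± 0.34 above adult liver on probe 1 and 1.96 ± 0.32 on probe 2, though 0.22 in Cy3 alone. Dlk1 was above background on 1 of 2 pancreas arrays on either probe. Day 3 after CCl4 lay 0.22 ± 0.30 from undamaged liver, where Afp differed by 7.08.

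H19 had the same high groups as Dlk1. Probe 1 read 2.90, 3.30 and 2.94 in muscle, 3.03, 2.93 and 2.88 in white and 1.90, 1.82 and 1.60 in brown adipose tissue, while adult liver read -1.44 and -1.71. White adipose tissue and muscle overlapped, and every brown adipose array lay below them and above all other groups. Probe 2 gave 4.97 ± 0.16, 4.33 ± 0.34 and 2.86 ± 0.51 (SD, n = 3 each). Muscle lay 4.62 ± 0.24 above adult liver on probe 1 and 6.68 ± 0.33 on probe 2, and 8.09 in Cy3 alone on probe 1, a gap that goes with the reference signal of 41156 to 70554 on the muscle arrays. Brown lay -1.18 ± 0.21 from white on probe 1, -1.47 ± 0.29 on probe 2 and -1.53 in Cy3 alone.

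In the liver groups H19 was low. The day 3 livers read -0.69 ± 0.20 (SD, n = 2) and the difference from undamaged liver was 0.40 in the ratio and -0.17 in Cy3 alone, so its direction depends on the scale. EM organoids, at -2.57 ± 0.01, lay -0.99 ± 0.26 from adult liver on probe 1 and -0.10 ± 0.36 with overlap on probe 2. No H19 was above background in the DM organoid or the Lgr5-sorted cells.

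Muscle transcripts were present on the fat arrays beside Dlk1 and H19. Muscle creatine kinase Ckm was at 4.67, 0.10 and 5.01 and embryonic myosin Myh3 at 4.80, 0.77 and 4.69 in white adipose tissue, where Dlk1 read 3.43, 3.51 and 3.87 and H19 3.03, 2.93 and 2.88. Perinatal myosin Myh8 was at 4.25, 3.29 and 4.57 there and above background on all 3 arrays. White adipose array 2 thus carried less of all 3 muscle transcripts than the other white arrays, with Myh8 and Myh3 still above background, and its Dlk1 and H19 lay within the range of its group. Day 13 array 1 of the CCl4 livers carried Myh1 at 4.63, Myh2 at 5.91, Myh8 at 4.82 and Adipoq at 3.17, with Myh3 at -0.50 and not above background, and its Dlk1 of -3.78 was close to the -3.60 of day 13 array 2. Myh3 read 5.07, 5.15 and 4.98 in muscle and 4.25, 4.16 and 3.84 in brown adipose tissue, and was above background in no group outside muscle and fat. The part of muscle transcripts in the Dlk1 and H19 values of fat was not tested. The 4 myosin genes Myh1, Myh2, Myh3 and Myh8 were looked up after other values had been seen.

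**Figure D4:**
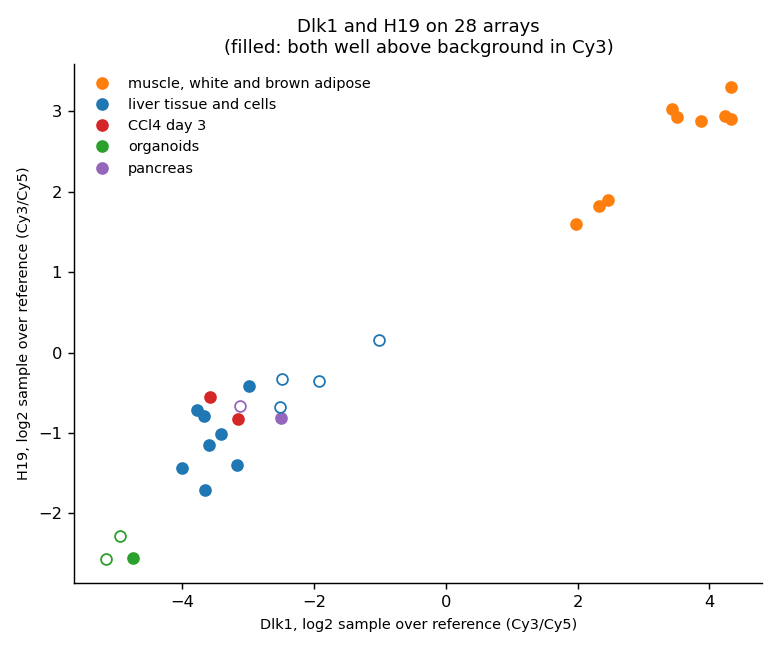
H19 level ratio against Dlk1 level ratio (both log2 Cy3/Cy5) on the 28 arrays, coloured by tissue class; filled points have both genes well above background in Cy3 and open points do not. The 9 muscle and fat arrays form a cloud at the upper right, apart from the other 19 arrays, and brown adipose tissue is the lowest of the 3 groups on both axes.

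Gpc3 was high in the same 3 groups, on a single probe (chrX:49625740-49625799, minus strand, mm9). Muscle read 6.08, 6.14 and 6.00, brown adipose tissue 5.18, 5.41 and 4.88, and white adipose tissue 5.17, 3.95 and 6.32. It was above background on no adult liver array, where it read 0.37 and 0.53, so muscle was at least 50.9-fold higher in Cy3, with a ratio difference of 5.62 ± 0.42. The 2 fats had like means in the ratio, with a difference of 0.02, but brown was -2.54 below white in Cy3 alone, where white read 4.16, 3.00 and 3.83 and brown 1.37, 1.31 and 0.67 without overlap. The ratio therefore does not settle the order of the 2 fats for Gpc3.

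Gpc3 was higher in the DM organoid than in EM organoids. The DM organoid read 2.87 and was above background, and EM organoids read 1.07 and 0.82 with 1 of 2 above background. The difference was 1.92 ± 0.57, with 1.83 in Cy3 alone and 2.05 within the slide that DM shares with EM array 2, and it rests on 1 DM array. Sorted duct cells read 0.80 and 1.36, above background on both arrays, while Gpc3 was above background on neither hepatocyte array, which puts duct cells at least 2.45-fold higher in Cy3. The ratio difference was 1.17 ± 0.46, and within the 2 slides that hold both cell types it was 0.97 and 1.37. The duct arrays also carried stellate and endothelial markers, and the part of such cells in the Gpc3 value was not tested. Pancreas read 1.25 and 2.25, above background on 1 of 2 arrays. At day 3 after CCl4 the difference from undamaged liver was 0.54 ± 0.40, and -0.46 in Cy3 alone, so no direction can be given.

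Igf2bp3 was measured in muscle and fat and hardly elsewhere. On probe 1 (chr6:49035710-49035769, minus strand, mm9) muscle read 1.04, 1.10 and 0.96, a mean of 1.03 ± 0.07 (SD, n = 3), white adipose tissue 0.22 ± 0.15 and brown adipose tissue -0.67 ± 0.22. The 3 groups did not overlap. In 9 groups no array was above background, and at day 3 after CCl4 it was 1 of 2. The ratios of brown adipose tissue on the other probes, -1.52 on probe 2 and -0.96 on probe 3, did not exceed those of every such group. Hepatocytes read -0.64 on probe 2 and adult liver -0.31 on probe 3, with no array above background. Muscle was at least 10.7-fold above adult liver on probe 1, at least 7.4-fold on probe 2 and at least 3.02-fold on probe 3, whose sequence is shown above. Brown lay -0.90 ± 0.25 from white, and -0.77 in Cy3 alone, which is close to the shift of -0.71 of all genes on that scale.

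Igf2bp1 had the narrowest range of the 6 genes. Its group means spanned 2.04, against 3.93 for Igf2bp3, 5.61 for H19, 6.16 for Gpc3, 7.84 for Afp and 9.25 for Dlk1. On probe 1 (chr11:95824526-95824585, minus strand, mm9) muscle was highest at -0.42 ± 0.07 (SD, n = 3) and EM organoids lowest at -2.46 ± 0.03 (SD, n = 2). Brown adipose tissue, at -1.77 ± 0.13, was close to adult liver at -1.69 ± 0.04. Muscle and both fats thus did not stand apart as they did for Dlk1, H19 and Gpc3 in the ratio and for Igf2bp3 in detection on probe 1. Muscle lay 1.26 ± 0.18 above adult liver on probe 1 and 1.58 ± 0.24 on probe 2. Probe 3 was above background on only 4 arrays.

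Neighbouring groups in the order of means often overlapped. Of the 12 neighbour pairs, 9 overlapped for Afp, 8 for Gpc3 and Igf2bp1, 7 for Igf2bp3, and 6 for Dlk1 and H19. Probes of a gene followed each other over the 13 group means, with Pearson correlations to probe 1 of 0.98 for Dlk1, 0.99 for H19, 0.96 and 0.86 for Igf2bp1, and 0.89 and 0.70 for Igf2bp3.

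The patterns of the members were compared with those of all genes by Pearson correlation over the 13 group means, as a description. All points share the reference RNA and the platform, and many groups are low together. H19 and Dlk1 were each other's nearest gene, at 0.984 in the ratio and 0.986 in Cy3 alone. Dlk1 was next nearest to Efs (0.979) and Ebf3 (0.977), and H19 to Adam19 (0.967) and Ebf3 (0.964). Gpc3 was nearest to Efhd1 (0.985), Fcrls (0.978) and Bcl2l10 (0.976). Igf2bp3 was nearest to Vcan (0.977), Sfrp2 (0.970) and Tbx15 (0.969), and Igf2bp1 to Rhd (0.981), Fez1 (0.980) and Map1a (0.977).

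Afp had no such close neighbour. Its nearest named genes were Rptoros (0.827) and Ccr2 (0.806), which fell to -0.049 and 0.479 in Cy3 alone, and its correlations with the other 5 members were 0.16 to 0.40. Among the others, Dlk1 correlated with Igf2bp3 at 0.88 and with Gpc3 at 0.84, while Gpc3 and Igf2bp1 stood at 0.12. The nearest genes other than the pair of Dlk1 and H19 mostly changed with the measure used.

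The companion genes are 79 genes in 7 groups, namely albumin family genes, regulators of Afp and H19, the IGF2 and Igf2bp axis, imprinted genes, glypicans and their sulfatases, Dlk1 partners with preadipocyte genes, and other genes of fetal liver and tumours. Of these, 74 were tested, with Igf2 in 2 groups. Called means an adjusted p under 0.05 (limma, Benjamini-Hochberg over all 21031 genes) and a difference of at least 1 on the log2 scale.

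In muscle against adult liver, 42 companions were called higher and 12 lower, where 19.8% and 15.9% of all genes were. The IGF2 axis rose in 8 of 8 genes, with a median of 2.70 against 0.00 for all genes. Igf2 itself, which encodes a fetal growth factor, read 3.51, 3.85 and 3.64 in muscle and -1.98 and -1.87 in adult liver, a rise of 5.59 ± 0.17 (limma, adjusted p = 5.24e-15). Its receptor Igf1r rose by 3.27 ± 0.31 (adjusted p = 2.42e-08), and Igf2bp2, the third member of the Igf2bp family, by 3.16 ± 0.20 (adjusted p = 5.32e-11). Muscle and adult liver share no slide and no scan day, so tissue and batch cannot be told apart here.

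Imprinted genes rose in 15 of 19 cases and fell in 1, with a median of 3.19. Plagl1, a zinc finger factor, rose by 7.87 ± 0.28 (limma, adjusted p = 3.17e-14), and Grb10, an adaptor that restrains insulin and IGF signals, by 7.10 ± 0.34 (adjusted p = 1.46e-12). Meg3, the non-coding RNA of the Dlk1 cluster, rose by 3.19 ± 0.53 (adjusted p = 3.81e-05), and Rian, of the same cluster, was at least 234-fold higher in Cy3, with a ratio difference of 5.01 (adjusted p = 1.78e-09). The amino acid transporter Slc38a4 fell by 2.20. Glypicans and sulfatases rose in 4 of 6, with Sulf1 at 4.09 and Gpc1 at 3.35, and Gpc4, the glypican next to Gpc3, rose by 1.10 ± 0.20 (adjusted p = 1.18e-04).

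Dlk1 partners and preadipocyte genes rose in 7 of 11, with Ebf2, a factor of adipocyte precursors, at least 18.8-fold higher and the receptor Notch3 at 3.88. Regulators of Afp and H19 fell in 8 of 13, led by the liver factors Foxa2, by 6.38 ± 0.46 (limma, adjusted p = 5.26e-10), and Hnf4a, at least 42.9-fold lower. The repressor gene Zbtb20 differed by -0.35 (adjusted p = 0.428). In the albumin family 2 of 3 fell, Gc by 7.05 and Afm by 5.24 in the ratio, which is at least 319-fold lower in Cy3. Alb differed by -0.39 in the ratio (limma, adjusted p = 0.701). In Cy3 alone, however, Alb read 2.01, 1.89 and -0.34 in muscle against 10.58 and 9.85 in adult liver. Other fetal genes rose in 9 of 15 and fell in 1, with Bex1 at 5.81 in the ratio and at least 73.5-fold higher in Cy3, Aldoa at 5.10 and Tert at -1.11.

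In livers 3 days after CCl4 against undamaged liver, 9 companions were called higher and 2 lower, where 4.96% and 2.03% of all genes were. Golm1, a Golgi membrane protein, rose by 3.46 ± 0.17 (limma, adjusted p = 1.85e-10), and Prom1, a surface protein of progenitor cells, by 3.76 ± 0.40 (adjusted p = 1.75e-06). Imprinted genes rose in 5 of 19 and fell in 1. Phlda2 rose by 2.88 ± 0.26 (adjusted p = 2.01e-07) and Meg3 by 1.90 ± 0.51 (adjusted p = 0.014), while Slc38a4 fell by 1.35 ± 0.44 (adjusted p = 0.0402). Of the regulators, Foxa3 rose by 1.18 ± 0.39 (adjusted p = 0.0442), and Hmga1, of the IGF2 axis list, rose by 1.05 ± 0.22 (adjusted p = 0.00325). Pparg, of the preadipocyte list, fell by 2.20 ± 0.28 (adjusted p = 1.77e-05).

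Of the known repressors of Afp, Zbtb20 gave no called difference at day 3, at 0.30 ± 0.35 (limma, adjusted p = 0.696). Zhx2 was not above background on any of these arrays, so a change in it could not be read. Alb, the neighbour of Afp, whose difference is given above, was not called either. Igf2 differed by -0.37 ± 0.16 (adjusted p = 0.133). The total of 11 called genes was sensitive to single arrays, with 4 and 5 when day 3 array 1 or 2 was left out, 7 without whole liver array 2 and 7 without adult liver array 1.

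Between day 13 and day 3, 1 companion was called higher and 4 lower, where 2.13% and 3.56% of all genes were. Golm1 fell by 2.70 ± 0.19 (limma, adjusted p = 1.92e-08), Prom1 by 2.08 ± 0.46 (adjusted p = 0.00537) and Sox9, a factor of bile duct cells, by 1.69 ± 0.27 (adjusted p = 2.60e-04). Phlda2 was at least 9.01-fold lower, and Pparg rose by 1.96 ± 0.33 (adjusted p = 4.64e-04). The day 13 array with muscle and fat transcripts is 1 of the 2 arrays behind these values.

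In EM organoids against adult liver, 18 companions were called higher and 16 lower, where 14.4% and 17.6% of all genes were. Other fetal genes rose in 8 of 15, with Epcam, an adhesion protein of epithelial progenitors, at 6.81 (limma, adjusted p = 1.05e-09) and Prom1 at least 83.9-fold higher. The IGF2 axis rose in 4 of 8, with a median of 1.20 against -0.09 for all genes. Cd44 and Myc each rose by 4.03, and Igf2 by 1.59 (adjusted p = 5.40e-07), although H19 beside it was not higher in organoids. Imprinted genes went both ways, 3 higher and 4 lower. Plagl1 rose by 4.52 and Slc38a4 was at least 181-fold lower.

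Regulators of Afp and H19 fell in 5 of 13 in EM organoids, with Cebpa at -3.60, Nr5a2 at least 14.3-fold lower and Zbtb20 at -1.45 (limma, adjusted p = 0.00552). Alb fell by 2.48 in the ratio (adjusted p = 0.0266). In Cy3 alone Alb fell further, from 10.58 and 9.85 in adult liver to -1.74 and -1.37 in EM organoids. Afm fell by 5.06 in the ratio and was at least 227-fold lower in Cy3. Dlk1 partners and preadipocyte genes rose in 1 case, Sox9 at 3.18, and fell in 4. Among glypicans and sulfatases 3 of 6 rose, with Sulf2 at 2.92 (adjusted p = 1.02e-08).

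In the DM organoid against EM organoids, 9 companions were called higher and 7 lower, where 6.25% and 4.03% of all genes were. Igf2 was at least 2.5-fold lower and not above background in DM, and Igf2bp2 rose by 2.05 ± 0.26 (limma, adjusted p = 1.83e-05). Glypicans and sulfatases fell in 3 of 6, namely Sulf2 by 2.43, Gpc1 by 1.70 and Gpc4 by 1.22, while Gpc3 was higher. Pparg rose by 3.40 (adjusted p = 5.87e-06) and Notch3 by 1.45 (adjusted p = 0.0136). Zbtb20 fell by 1.60 (adjusted p = 0.0374), and Hnf4a rose by 1.16 (adjusted p = 0.00571). DM is 1 array, taken to vary like the other groups, and without EM array 1 the total of 16 was 9.

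In sorted duct cells against hepatocytes, 28 companions were called higher and 11 lower, where 11.9% and 11.5% of all genes were. Other fetal genes rose in 8 of 15, with Akr1b8 at 4.75 and the surface protein Cd24a at 4.07. The IGF2 axis rose in 5 of 8, with Hmga1 at 4.06, Myc at 3.70 and Igf2 at 1.43 (limma, adjusted p = 3.14e-06). Imprinted genes rose in 9 of 19, with the matrix protein gene Dcn at 5.39 and Asb4 at least 69.5-fold higher, and Slc38a4 fell by 6.41. Regulators of Afp and H19 fell in 6 of 13, with Foxa2 at -3.23, and Cebpb rose by 1.92. Gpc4 fell by 1.04 (adjusted p = 9.40e-04) where Gpc3 was higher, and Sulf1 was at least 6.97-fold higher. The duct arrays also carried stellate and endothelial markers, and Dcn is itself on the stellate and matrix list. The part of such cells in these values was not tested.

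In pancreas against adult liver, 23 companions were called higher and 11 lower, where 16.4% and 12.6% of all genes were. Other fetal genes rose in 10 of 15 and fell in 1, with Cd24a at 5.39 (limma, adjusted p = 4.09e-11) and Epcam at 3.05. The IGF2 axis rose in 5 of 8, with Hmga2 at 2.47, Myc at 2.29, Igf2bp2 at 1.63 and Igf2 at 1.39. Regulators of Afp and H19 fell in 6 of 13, including Hnf4a at -5.31, Cebpa at -3.78 and Zbtb20 at -2.05, while the Afp ratio in pancreas lay 0.66 ± 0.99 from adult liver. Pancreas and adult liver share no slide and no scan day, so tissue and batch cannot be told apart.

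In brown against white adipose tissue, 9 companions were called higher and 17 lower, where 9.63% and 9.35% of all genes were. The IGF2 axis fell in 5 of 8, with Igf1r at -1.91, Cd44 at -1.90 and Igf2bp2 at -1.53, and a median of -1.32. Igf2 differed by -0.88 (limma, adjusted p = 1.15e-04), which is under the minimum difference. Imprinted genes went both ways, with Snrpn at 2.36, Asb4 at 2.23, Dcn at -2.61 and Grb10 at -1.47. Among Dlk1 partners Ebf2 rose by 2.64 and Zfp423 by 1.37, both factors of adipocyte precursors, and Sox9 fell by 1.96. In Cy3 alone the split was 7 higher and 35 lower, with the median of all genes at -0.71. All brown arrays were scanned on 1 day and all white arrays on another, on different slides, so tissue and batch cannot be told apart for these genes or for the members.

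**Figure D5:**
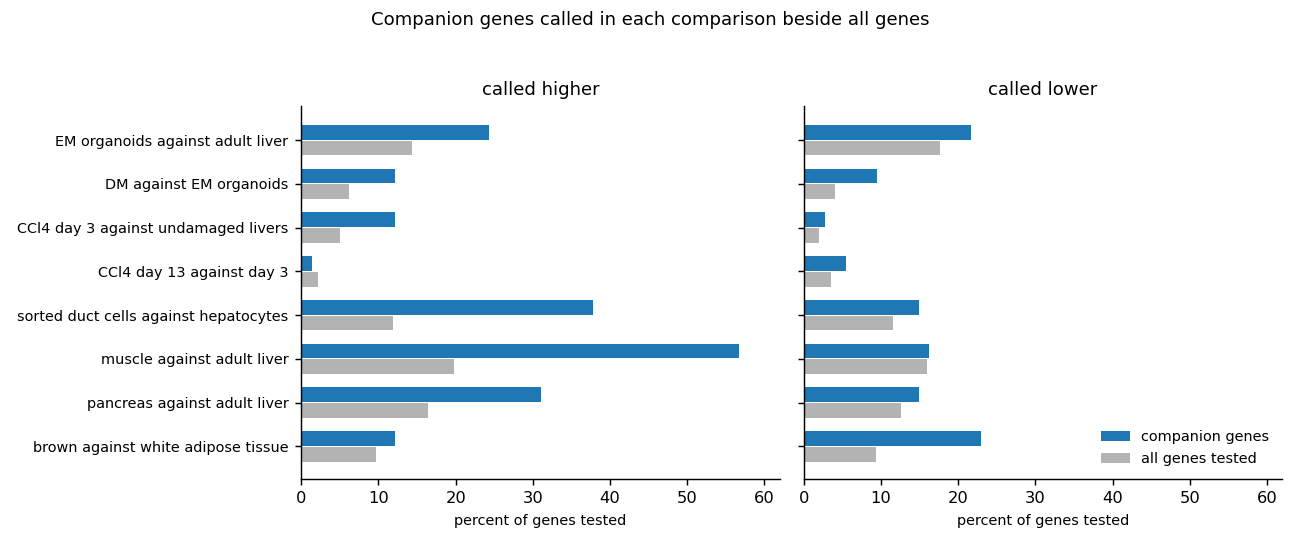
Share of the 74 tested companion genes (blue bars) and of all tested genes (grey bars) called higher or lower (percent, horizontal axis) in each of the 8 comparisons (vertical axis). Muscle against adult liver has the most companions called, 42 higher and 12 lower, and day 13 against day 3 the fewest, 1 higher and 4 lower.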

How the data were processed

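The 28 arrays were Agilent 2-colour arrays, read with Feature Extraction 10.5.1.1 per the file headers, while the submitters' processing notes name 8.5.1.1. The deposited files give the intensity of each spot and background in both channels, and a log10 ratio of Cy5 over Cy3. The series' value table, deposited by the authors, held the same log10 ratios (0 spots differed on 28 arrays), with array medians of 0.000 to 0.102, and served as the alternative named Feature Extraction log ratio.

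From the deposited median intensities, signals were corrected with normexp (offset 50) and normalized within arrays by loess with the 1639 control spots of 45018 at weight 0 (limma 3.58.1, R 4.3.3). After removal of outlier spots (0.688%) and averaging of repeated spots, 41174 probes remained, and the sign was turned to Cy3 over Cy5. Detection in Cy3 on 2 or more arrays was required, which kept 31063 probes of 21031 genes, and each gene was read from its brightest probe. Names were updated through RefSeq (GRCm38.p6), which matched 16782 genes and left 4249 under their name in the files.

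A limma model over the 13 groups gave differences with SE (15 residual and 4.41 prior degrees of freedom), and p-values were adjusted by Benjamini-Hochberg. "At least" folds set the brighter group's mean against the dimmer group's detection limit. The model was tested on simulated data. The members and companion lists were chosen with earlier results of these data known. Named are all 6 members; per comparison and list the called genes with the top 2 rises and the top 2 falls; the 3 genes nearest each member; and Alb, Igf2, Igf2bp2, Zhx2, Zbtb20, Lin28b, Meg3, Gpc4 and Mki67 where measured. The arrays lie on 13 slides and 9 scan days. One gene that this rule names is not reported here.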

Additional observations from a re-analysis of the deposited data

How the results depend on the processing

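Counts of called companions in EM organoids against adult liver (31 to 42), sorted duct cells against hepatocytes (32 to 43), muscle against adult liver (48 to 64) and pancreas against adult liver (28 to 41) stayed within 1.5 times the main count under every alternative run. For DM against EM the count of 16 became 7 with the Feature Extraction log ratio and 10 with quantile normalization of the ratios (added after seeing the data), and 9 to 14 with 1 array left out. For day 3 against undamaged liver the count of 11 became 6 with that quantile normalization, 6 with the mean of all probes of a gene, and 4 to 10 with 1 array left out. For day 13 against day 3 the count of 5 became 8 in a fit of only the groups compared. For brown against white adipose tissue the count of 26 became 42 in Cy3 alone and 40 with no minimum fold. Causes were not tested. With the replicate number as a block, which the labels do not say pairs the arrays (same-numbered arrays correlated at -0.19 to 0.44), the counts were 34 (EM organoids), 11 (day 3), 5 (day 13), 40 (duct cells), 53 (muscle), 34 (pancreas) and 26 (brown adipose tissue), and a crossed pairing of day 13 and day 3 also gave 5. No paired analysis was possible for DM against EM because DM is 1 array. Of 510 alternative values for member differences, 419 moved by less than the spread between arrays and 91 by more. Genes not above background are known only as limits.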

Other observations

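Brown adipose array 1 carried pancreatic transcripts, with the insulin gene Ins1 at 4.97, glucagon Gcg at 4.52 and the acinar lipase Cel at 4.54. The other brown adipose arrays read -0.01 and 0.01 for Ins1. The acinar list mean was 0.26 to 3.01 over the 3 brown adipose arrays, 0.83 to 2.02 in adult liver and 8.33 to 9.65 in pancreas. Brown fat marker Ucp1 read 5.33, 5.03 and 5.22 in brown adipose tissue, and 3.72 on day 13 array 1 of the CCl4 livers, where array 2 read 0.01. Cycling genes were also high in muscle and white adipose tissue: the proliferation list stood at -1.44 to -1.19 in muscle and -1.81 to -1.27 in white adipose tissue, against -4.23 to -3.96 in adult liver and -1.46 to -1.02 in EM organoids.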
